A study of Mus musculus with 20 samples.

Results

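Protein phosphatase 1 (PP1) is a serine/threonine phosphatase whose catalytic and regulatory subunits are encoded by the genes named Ppp1c and Ppp1r. The members described here are the rows of the deposited gene table whose name begins with either prefix, 47 of 25219 genes. Of these 47 members, 43 are protein genes and 4 are non-coding genes. No bracketed copy of a member was listed. No count was found in any library for 4 members (Ppp1r14d, Ppp1r17, Ppp1r2-ps7 and Ppp1r2-ps9).

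RNA was sequenced from inguinal white fat (iWAT) and brown fat (BAT) of male mice of a mixed C57Bl/6 background, 5 Control and 5 Ai-α4KO libraries for either depot. Ai-α4KO mice carried floxed alleles of Igbp1, the gene of the phosphatase-binding protein α4, and an Adiponectin-CreERT2 transgene, which is active in adipocytes once tamoxifen is given. Control mice carried the same floxed alleles without the transgene, although the labels call them WT. Both genotypes received 5 tamoxifen injections of 100 mg/kg over 6 days from 2 months of age, and tissue was taken 1 week after recombination. The labels do not say whether the libraries of a group came from separate mice, or whether 1 mouse gave both tissues, so that p-values measure the spread between these libraries. Library totals ran from 24023371 to 50384446 counts. Igbp1 was lower in all Ai-α4KO libraries, at a log2 fold change (log2FC) of -2.65 in iWAT (adjusted p = 4.99e-08, edgeR quasi-likelihood test) and at -2.50 in BAT (adjusted p = 2.20e-07). The promoter is meant to restrict Cre to adipocytes. Recombination was not measured by cell type in these libraries, and the source of the remaining Igbp1 counts was not tested.

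PP1 is built around a catalytic subunit, encoded by Ppp1ca, Ppp1cb or Ppp1cc, that has little choice of substrate on its own. A regulatory subunit docks on it, often through an RVxF-type motif, and carries the enzyme to glycogen, myosin, the ribosome-associated factor eIF2α, chromatin or the cytoskeleton, or blocks it. In fat, PP1 bound to glycogen-targeting subunits dephosphorylates glycogen synthase and phosphorylase, and inhibitor-1 links PP1 activity to protein kinase A. The protein α4 is known to bind the catalytic subunits of the related phosphatases PP2A, PP4 and PP6, and PP1 is not among its known partners.

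Levels are given as CPM per kb, the CPM after TMM scaling of all 20 libraries divided by the transcript width that the table lists, in kilobases. This scale allows libraries and genes to be compared. The log2FC of Ai-α4KO over Control, with its standard error (SE), was fitted within each tissue. To be called, a member had to change 2-fold or more and have an adjusted p under 0.01. On this scale 32 members averaged at least 1 CPM per kb over all libraries and 19 at least 10. Ppp1ca was the most abundant member in each of the 4 groups. In Control iWAT it was followed by Ppp1r3c at 82.3 ± 43.7 CPM per kb, Ppp1r1a at 70.1 ± 6.11 and Ppp1cb at 67.8 ± 9.14 (SD, n = 5), which do not differ beyond their spread. In Control BAT it was followed by Ppp1cb at 182 ± 46.7, Ppp1r3c at 148 ± 49.9 and Ppp1r3b at 103 ± 33.0 CPM per kb (SD, n = 5), and each of these ranges overlaps that of its neighbour in the order. In Ai-α4KO iWAT both Ppp1r3c and Ppp1r3b had left the leading members, and Ppp1r14b, Ppp1cb and Ppp1cc stood next to Ppp1ca at 61.6 to 70.5 CPM per kb.

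Of the 47 members, 35 passed the filter on low counts in iWAT and 37 in BAT. Too few counts for a test in either tissue were found for 10 members, the 4 without any count among them, and Ppp1r3g and Ppp1r27 were tested in BAT only. In iWAT 1 member was called higher in Ai-α4KO, Ppp1r21, against 11.3% of all genes tested, and 5 of 35 were called lower, Ppp1r3b, Ppp1r3c, Ppp1r1a, Ppp1r9a and Ppp1r3e, against 10.7% of all genes. In BAT 5 of 37 members were called higher, Ppp1r14c, Ppp1r27, Ppp1r3a, Ppp1r18 and Ppp1r21, against 18.2% of all genes, and 5 were called lower, Ppp1r3b, Ppp1r9a, Ppp1r13l, Ppp1r3e and Ppp1r37, against 13.3%. Called in the same direction in both tissues were 4 members, of which Ppp1r3b, Ppp1r3e and Ppp1r9a fell and Ppp1r21 rose. The genotypes did not overlap in 12 of 35 members in iWAT (39% of all genes) and 11 of 37 in BAT (47.6% of all genes). Each of these shares of the members lies near or below that of all genes, including the 14.3% called lower in iWAT (5 of 35, against 10.7%). The median log2FC of the members tested was -0.14 in iWAT (all genes 0.015) and -0.27 in BAT (all genes -0.032).

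**Figure D1:**
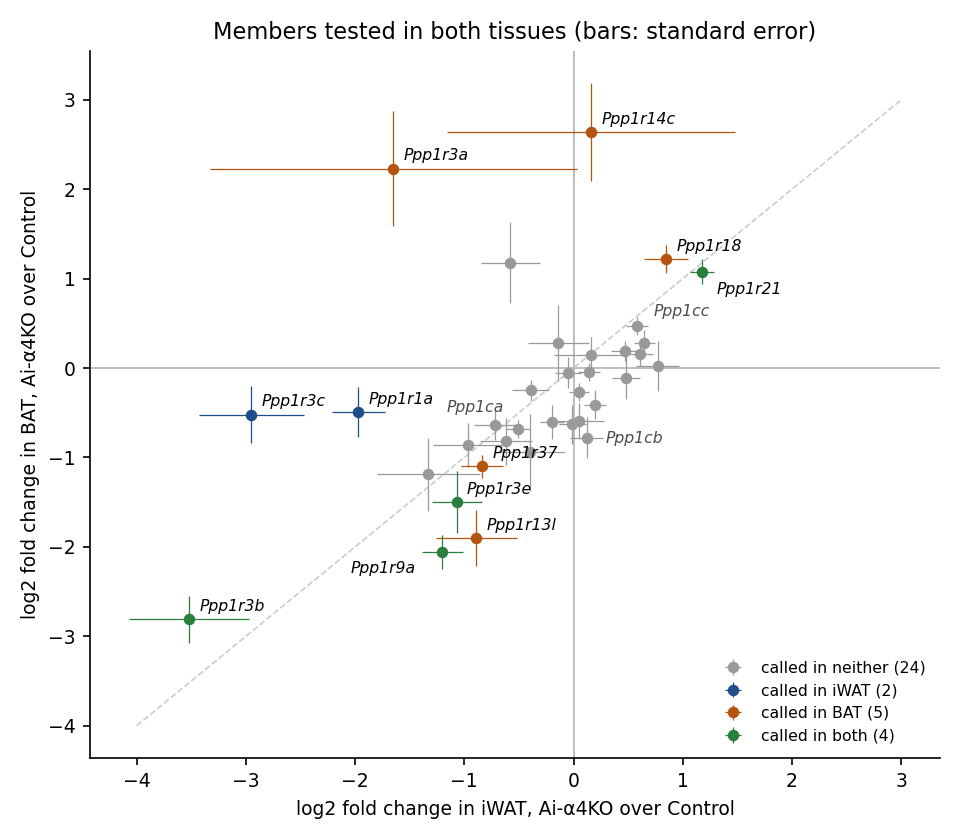
Log2 fold change of Ai-α4KO over Control in iWAT (x axis) and in BAT (y axis) for the 35 members tested in both tissues, with standard errors as bars, equal values on the dashed line and colours for the tissue in which a member was called. Ppp1r3b, Ppp1r3e, Ppp1r9a and Ppp1r21 lie on the same side in both tissues, Ppp1r3c and Ppp1r1a lie far to the left with BAT values near -0.5, and Ppp1r3a and Ppp1r14c lie high with wide bars in iWAT.

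The 3 catalytic genes moved unequally, and none was called between genotypes. Ppp1ca (PP1α, chromosome 19, 4192174 to 4195419 in the mm10 coordinates of the table) stood in Control iWAT libraries 1 to 5 at 263, 241, 286, 240.5 and 272 CPM per kb, and in Ai-α4KO iWAT libraries at 222, 176, 166, 177 and 174. In BAT it stood at 274, 245, 266, 255 and 279 CPM per kb in Control and at 191, 178, 152, 167 and 159.8 in Ai-α4KO. All Ai-α4KO libraries lay under all Control libraries of the same tissue (p = 0.00794 in each tissue by a two-sided exact permutation test, the smallest that 5 against 5 libraries allow). The log2FC was -0.51 in iWAT (SE 0.11, adjusted p = 0.00199) and -0.68 in BAT (SE 0.10, adjusted p = 1.11e-04), so that Ppp1ca was 1.43-fold lower in iWAT and 1.60-fold lower in BAT, under the 2-fold rule.

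Ppp1cc (PP1γ, chromosome 5, 122158279 to 122175269) went the other way. Its levels were 44.4, 40.8, 37.8, 45.6 and 37.0 CPM per kb in Control iWAT and 55.6, 62.6, 62.8, 59.8 and 67.3 in Ai-α4KO iWAT. In BAT they were 40.7, 49.9, 39.5, 36.8 and 36.3 CPM per kb in Control and 57.9, 58.9, 58.3, 62.1 and 51.8 in Ai-α4KO. Every Ai-α4KO library lay above every Control library of its tissue (p = 0.00794 in each tissue, exact permutation test). The log2FC was 0.58 in iWAT (SE 0.10, adjusted p = 4.15e-04) and 0.47 in BAT (SE 0.10, adjusted p = 0.00192). With library size only it was 0.69 and 0.74 (adjusted p = 2.36e-04 and 7.94e-05). Without the 2-fold rule, which Ppp1ca and Ppp1cc miss, 7 members were higher and 8 lower at an adjusted p below 0.01 in iWAT (all genes 21.5% and 18.8%), and 6 were higher and 8 lower in BAT (all genes 25% and 24.8%).

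Ppp1cb (PP1β, chromosome 5, 32458970 to 32493712), the form known to pair with myosin-targeting subunits, ranged from 53.9 to 79.1 CPM per kb in Control iWAT and from 56.4 to 75.8 in Ai-α4KO iWAT. The groups overlapped throughout, with a log2FC of -0.01 (SE 0.12, adjusted p = 0.942). In BAT it stood at 159, 259, 192, 156 and 144 CPM per kb in Control and at 87.0, 85.7, 159.8, 156 and 113 in Ai-α4KO, with 2 Ai-α4KO libraries inside the Control range. The log2FC in BAT was -0.63 (SE 0.22, adjusted p = 0.0274), which did not pass the threshold. With the skeletal muscle score as a covariate it was -1.06 (SE 0.31, adjusted p = 0.0165), not called. Summed over the 3 catalytic genes, levels ran from 351 to 389.9 CPM per kb in Control iWAT and from 294 to 334 in Ai-α4KO iWAT, and from 447 to 554 in Control BAT and 323 to 385 in Ai-α4KO BAT.

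The make-up of the catalytic pool, computed from the deposited FPKM values within each library, is given as a description. In iWAT, Ppp1ca made up 70.5% ± 3.18 of the 3 genes in Control and 58.5% ± 4.58 in Ai-α4KO (SD, n = 5). Ppp1cc took 11.2% ± 1.37 and 19.8% ± 1.90 in the same groups, and 8.34% ± 0.459 in Control BAT against 16.7% ± 1.06 in Ai-α4KO BAT. The share of Ppp1cc in the Control libraries reached at most 12.5% in iWAT and 9.0% in BAT, and in the Ai-α4KO libraries it was at least 16.7% and 15.7%. Ppp1cb held 18.4% ± 2.60 in Control iWAT and 37.0% ± 6.05 in Control BAT, the widest gap between the tissues of the 3 genes.

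**Figure D2:**
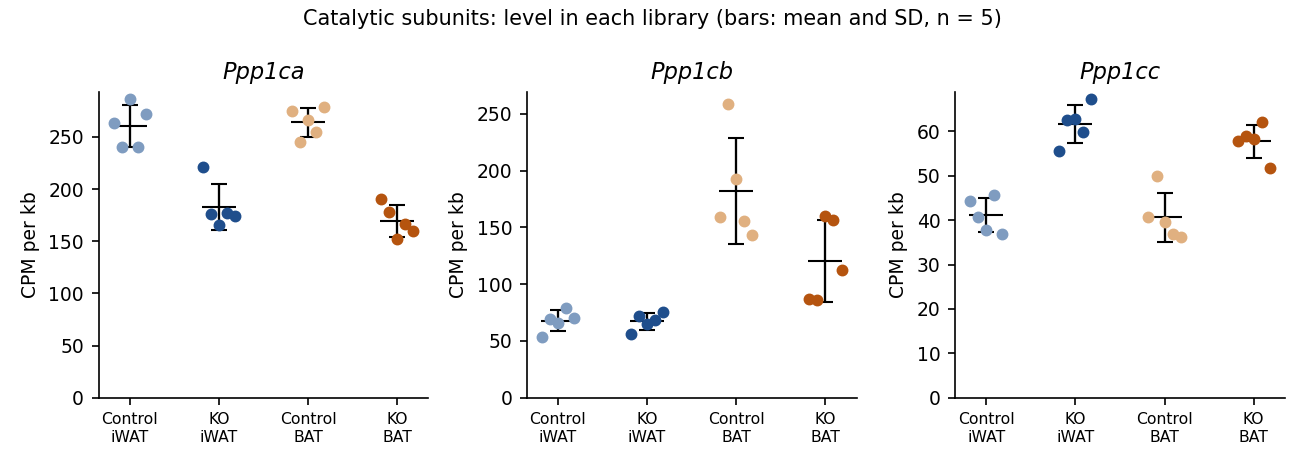
CPM per kb (y axis) of the 3 catalytic genes in each library of the 4 groups (x axis), with points for libraries and bars for the mean and SD of 5 libraries; KO stands for Ai-α4KO. Ai-α4KO libraries lie under Control for Ppp1ca and above Control for Ppp1cc in both tissues, whereas Ppp1cb stands between 53.9 and 79.1 in iWAT whatever the genotype and at 85.7 or more in every BAT library.

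Of the glycogen-targeting subunits, Ppp1r3b, Ppp1r3c and Ppp1r3e fell in iWAT, 3 of 6 tested, against 10.7% of all genes called lower. In BAT 2 of 7 tested fell, Ppp1r3b and Ppp1r3e, against 13.3% of all genes, and 1 rose, Ppp1r3a, against 18.2%. The steepest falls among the members were Ppp1r3b and Ppp1r3c in iWAT and Ppp1r3b in BAT. Summed over the 7 genes, glycogen-targeting transcripts went from 51.4 to 210.2 CPM per kb in Control iWAT libraries to 15.4 to 33.2 in Ai-α4KO iWAT, groups that did not overlap, and from 159.5 to 377 to 119.7 to 226 in BAT, groups that did.

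Ppp1r3b (GL, chromosome 8, 35375741 to 35388137), the subunit best known from liver, binds glycogen and glycogen synthase. It stood in Control iWAT libraries 1 to 5 at 9.33, 22.9, 14.1, 65.0 and 62.6 CPM per kb, and in Ai-α4KO iWAT at 2.53, 4.79, 2.40, 2.58 and 2.9. In BAT the levels were 137, 77.3, 109, 61.1 and 131 CPM per kb in Control and 13.0, 15.4, 11.7, 13.7 and 21.6 in Ai-α4KO. No Ai-α4KO library reached a Control library of its tissue (p = 0.00794 in each tissue, exact permutation test). Ppp1r3b fell in iWAT by 3.52 on the log2 scale (SE 0.55, adjusted p = 2.63e-04), an 11.5-fold difference, and by 2.81 in BAT (SE 0.26, adjusted p = 2.00e-06), a 7.01-fold difference. Over the fits that left out 1 library at a time, the iWAT log2FC lay between -3.82 and -3.17 and the BAT log2FC between -2.98 and -2.70, called each time.

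Ppp1r3c (PTG, chromosome 19, 36731731 to 36736604) targets PP1 to glycogen in many tissues, fat included. In Control iWAT it stood at 34.2, 87.6, 40.6, 126 and 124 CPM per kb, and in Ai-α4KO iWAT at 18.9, 15.1, 5.47, 7.48 and 6.53. The groups did not overlap, and Ppp1r3c fell by 2.95 on the log2 scale (SE 0.48, adjusted p = 3.79e-04), 7.71-fold. In BAT the levels were 149.8, 125, 167, 82.1 and 217 CPM per kb in Control and 87.0, 136, 173, 57.9 and 76.0 in Ai-α4KO. There 3 Ai-α4KO libraries lay inside the Control range and the log2FC was -0.52 (SE 0.32, adjusted p = 0.173).

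The Control iWAT libraries split for these 2 genes. Libraries 4 and 5 held 62.6 to 65.0 CPM per kb of Ppp1r3b and 124 to 126 of Ppp1r3c, while libraries 1 to 3 held at most 22.9 and 87.6. The same 2 libraries held 1003 and 1335 CPM of Lep, the adipocyte gene of leptin, against 53.3 to 330 in libraries 1 to 3, and 18 and 5.13 CPM of Ucp1, the brown and beige fat uncoupler, against 240 to 314. The part of this difference among Control libraries in the results was not tested.

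Ppp1r3e (chromosome 14, 54875597 to 54877538), a low-level member, stood at 2.63, 2.38, 1.72, 2.41 and 3.97 CPM per kb in Control iWAT and 1.51, 1.08, 1.29, 1.1 and 1.29 in Ai-α4KO iWAT. In BAT it stood at 1.62, 1.58, 2.45, 2.42 and 3.87 in Control and 1.36, 1.07, 0.617, 0.434 and 0.835 in Ai-α4KO. The groups did not overlap in either tissue, though by a narrow margin. It changed in iWAT by a log2FC of -1.07 (SE 0.23, adjusted p = 0.00241) and by -1.50 in BAT (SE 0.35, adjusted p = 0.00244). Without Control iWAT library 5, the highest, the iWAT log2FC was -0.87 and no longer 2-fold, and with the skeletal muscle score as a covariate the BAT value stayed at -1.50 with a larger SE of 0.51 (adjusted p = 0.0321). It was called in 12 of 16 alternatives in iWAT and 9 of 13 in BAT.

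Of the remaining glycogen-targeting genes, Ppp1r3d showed a log2FC of 0.05 in iWAT (adjusted p = 0.875) against -0.59 in BAT (adjusted p = 0.0209). Ppp1r3f, which lies antisense to the non-coding member Ppp1r3fos, showed -0.62 and -0.82 (adjusted p = 0.0445 and 0.0165). Ppp1r3g held at most 49 counts in a library. As Ppp1r3b and Ppp1r3c fell, the share of Ppp1r3d in the FPKM sum of the 7 genes in iWAT was 5.93% ± 1.51 in Control and 32.3% ± 7.73 in Ai-α4KO (SD, n = 5), while its level was 6.74 and 7.0 CPM per kb.

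**Figure D3:**
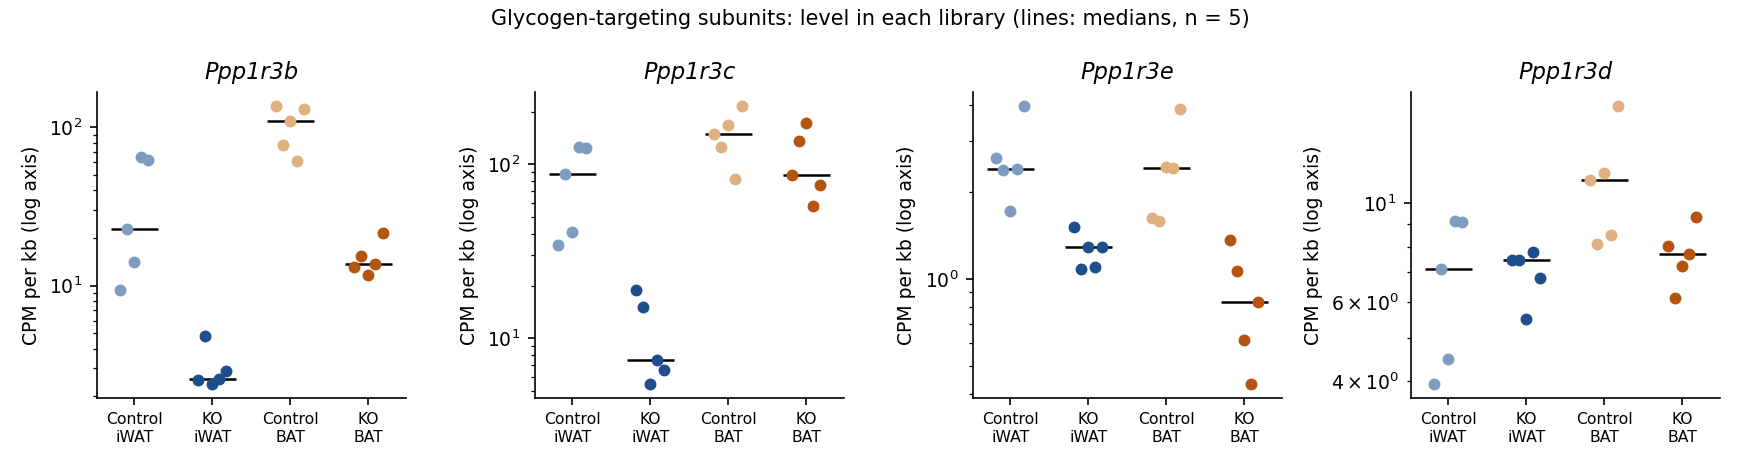
CPM per kb on log axes (y axis) of 4 glycogen-targeting subunits in each library of the 4 groups (x axis), with lines at the medians of 5 libraries; KO stands for Ai-α4KO. Ppp1r3b and Ppp1r3e are lower in all Ai-α4KO libraries of both tissues, Ppp1r3c is lower in all Ai-α4KO iWAT libraries and overlaps in BAT, and Ppp1r3d overlaps in both.

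Enzymes of glycogen metabolism were read from a list of 19 genes, all tested in both tissues. In iWAT 7 were called lower (10.7% of all genes) and 1 higher (11.3% of all genes), with a median log2FC of -0.95 (all genes 0.015). The 7 include Gys1, glycogen synthase, at -2.14 (SE 0.20, adjusted p = 1.17e-05), the phosphorylases Pygl at -2.55 and Pygb at -1.85, and Epm2a, the gene of laforin, at -2.05. The gene called higher was Pgm1, at 1.54, while Pgm2 was among the 7 called lower, at -1.47 (adjusted p = 1.28e-04). In BAT 4 were called lower (13.3% of all genes) and 3 higher (18.2% of all genes), with a median of 0.11 (all genes -0.032). Pygl, Pygb, Phka2 and the branching enzyme Gbe1 fell there too, between -2.81 and -1.41. The 3 that rose, Pygm, Phka1 and Phkg1, are the muscle forms of phosphorylase and phosphorylase kinase, at 1.39 to 2.07. Of 12 skeletal muscle markers, 10 were also called higher in BAT, and their part in these 3 values was not tested.

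Ppp1r3a, Ppp1r14c and Ppp1r27 rose in BAT of Ai-α4KO mice and shared a pattern over the 20 libraries. Ppp1r3a encodes GM, the glycogen-targeting subunit of striated muscle, Ppp1r14c encodes KEPI, an inhibitor of PP1 that is active once protein kinase C has phosphorylated it, and Ppp1r27 encodes a small ankyrin protein known as dysferlin-interacting protein 1. The 250 bases before their annotated starts are shown because these members moved together and each window holds 1 match to the hexamer CAGCTG, an E-box of the kind that myogenic factors can bind. The sequences are from RefSeq, build GRCm38.p6, read 5′ to 3′ on the strand of the gene, with the match in capitals. Ppp1r3a lies on the minus strand (chr6:14755275-14755524), Ppp1r14c on the plus strand (chr10:3365900-3366149) and Ppp1r27 on the minus strand (chr11:120551133-120551382).
Ppp1r3a: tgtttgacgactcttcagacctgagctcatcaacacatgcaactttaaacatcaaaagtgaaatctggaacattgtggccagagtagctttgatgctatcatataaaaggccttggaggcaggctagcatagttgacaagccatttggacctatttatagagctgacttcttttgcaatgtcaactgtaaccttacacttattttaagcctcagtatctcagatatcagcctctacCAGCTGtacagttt
Ppp1r14c: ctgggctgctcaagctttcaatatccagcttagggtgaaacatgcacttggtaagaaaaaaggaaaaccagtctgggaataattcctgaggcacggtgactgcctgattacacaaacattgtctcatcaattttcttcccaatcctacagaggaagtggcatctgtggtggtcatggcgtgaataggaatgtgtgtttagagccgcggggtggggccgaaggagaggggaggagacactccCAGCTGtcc
Ppp1r27: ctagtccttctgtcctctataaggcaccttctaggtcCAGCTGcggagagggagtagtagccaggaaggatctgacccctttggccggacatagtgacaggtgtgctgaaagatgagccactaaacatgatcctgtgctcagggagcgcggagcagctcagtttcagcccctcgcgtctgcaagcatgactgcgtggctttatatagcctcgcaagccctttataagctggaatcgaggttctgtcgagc
The match begins 14 bases before the start in Ppp1r3a, 9 bases in Ppp1r14c and 213 bases in Ppp1r27. CAGCTG reads the same on both strands and is one form of the wider E-box CANNTG. Of 32851 promoters in the same table, 13.0% hold CAGCTG and 66.2% hold CANNTG within these 250 bases. Promoters were found for 34 of the 47 members, and of the other 31 members 4 hold CAGCTG (12.9%). The hexamer was searched with the members' values known, and a match is a description of the letters only.

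In Control BAT libraries 1 to 5 Ppp1r3a stood at 0.505, 9.75, 6.14, 4.12 and 7.44 CPM per kb, and in Ai-α4KO BAT at 9.58, 13.1, 33.1, 55.2 and 22.7, with a small overlap. It rose by a log2FC of 2.23 (SE 0.64, adjusted p = 0.00912). Ppp1r14c stood at 0.325, 4.18, 3.41, 2.26 and 3.44 CPM per kb in Control and 7.18, 9.16, 22.2, 31.7 and 16.6 in Ai-α4KO, without overlap, and rose by 2.64 (SE 0.55, adjusted p = 0.00136). Ppp1r27 stood at 2.23, 19.1, 13.3, 9.10 and 15.2 in Control and 34.3, 38.6, 76.4, 118 and 84.7 in Ai-α4KO, without overlap, and rose by 2.55 (SE 0.49, adjusted p = 7.15e-04). For all 3 genes Control BAT library 1 was the lowest of the BAT libraries and Ai-α4KO BAT library 4 the highest.

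In iWAT the same genes were near 0 in all but 2 libraries. Control iWAT library 4 held 7.31 CPM per kb of Ppp1r3a, 3.16 of Ppp1r14c and 7.24 of Ppp1r27, and Ai-α4KO iWAT library 1 held 2.14, 3.71 and 19.1. The other 8 libraries held at most 0.141, 0.185 and 0.412. The log2FCs in iWAT were -1.65 for Ppp1r3a (SE 1.68, adjusted p = 0.427) and 0.16 for Ppp1r14c (SE 1.32, adjusted p = 0.929), and Ppp1r27 was not tested. Without Control iWAT library 4 the value for Ppp1r3a was 2.98, and without Ai-α4KO iWAT library 1 it was -4.42, neither of them called.

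Skeletal muscle markers moved with these 3 genes. A list of 12 such markers (Acta1, Ckm, Myh1, Myh2, Myh4 and 7 others) was summed in CPM and also scored as the mean log2 CPM. The score was 8.66 in Control iWAT library 4 and 8.58 in Ai-α4KO iWAT library 1, and at most 3.23 in the other iWAT libraries. In BAT it ran from 6.19, in Control library 1, to 9.45 in Control and from 9.95 to 11.77, in library 4, in Ai-α4KO. The summed level was 1115 to 11049 CPM in Control BAT and 15552 to 53240.0 in Ai-α4KO BAT, 10 of 12 markers were called higher in BAT, and no marker was at 0 in any library. The scores of the genotypes do not overlap in BAT. With the score as a covariate, the BAT log2FCs were -0.43 for Ppp1r3a (adjusted p = 0.181), 0.31 for Ppp1r14c (adjusted p = 0.392) and 0.58 for Ppp1r27 (adjusted p = 0.0468), and none was called. In 1 fit of all libraries the values were 2.26, 2.67 and 2.58, near those above, and none was called either (adjusted p = 0.141, 0.0366 and 0.0914). Ppp1r3a also passed 0.01 in only 3 of 10 fits without 1 library, with values of 1.83 to 2.5 and adjusted p of at most 0.0239.

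**Figure D4:**
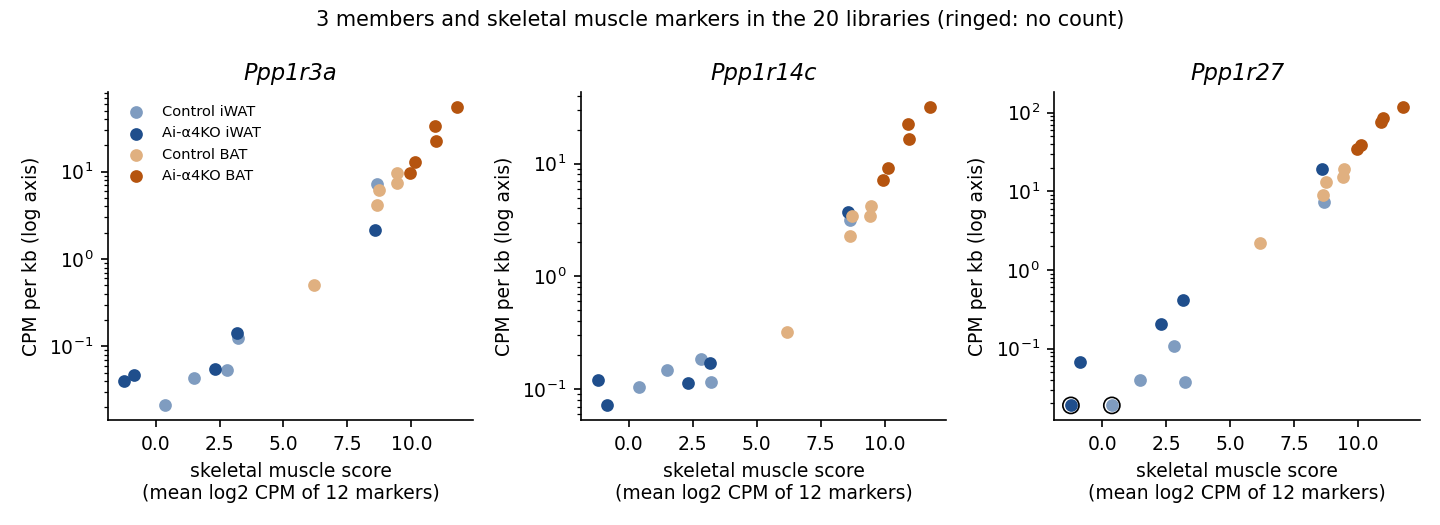
CPM per kb on log axes (y axis) of Ppp1r3a, Ppp1r14c and Ppp1r27 against the skeletal muscle score of each library (x axis, mean log2 CPM of 12 markers), with 1 point per library coloured by group and rings for libraries without a count, drawn at a low value of their own. Control iWAT library 4 and Ai-α4KO iWAT library 1 stand apart from the other iWAT libraries on both axes, and the Ai-α4KO BAT libraries hold the 5 highest scores.

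Among the inhibitors, Ppp1r1a (inhibitor-1, chromosome 15, 103530279 to 103537992), which blocks PP1 once protein kinase A has phosphorylated it, fell in iWAT. It stood at 63.2, 75.9, 67.4, 66.8 and 77.1 CPM per kb in Control iWAT and at 29.3, 14.3, 12.7, 21.6 and 11.7 in Ai-α4KO iWAT. The gap between the groups was more than the whole range of either, and the log2FC was -1.97 (SE 0.24, adjusted p = 5.07e-05), 3.92-fold. In BAT the levels were 35.5, 30.5, 42.8, 18.4 and 47.4 in Control and 24.0, 17.3, 24.3, 42.1 and 19.9 in Ai-α4KO. These groups overlapped, with a log2FC of -0.49 (SE 0.28, adjusted p = 0.138).

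Ppp1r2, inhibitor-2, was one of the steadiest members at -0.05 in each tissue (adjusted p = 0.742 and 0.807). Ppp1r11, inhibitor-3, was at 0.47 in iWAT (adjusted p = 0.00956) against 0.19 in BAT (adjusted p = 0.167). Of the family of CPI-17, which is best known for blocking myosin phosphatase in smooth muscle, Ppp1r14b (PHI-1) was the most abundant. It ran from 40.4 to 47.9 CPM per kb in Control iWAT and from 61.7 to 84.7 in Ai-α4KO iWAT, without overlap, at a log2FC of 0.65 (SE 0.10, adjusted p = 2.94e-04) that missed the 2-fold rule. In BAT it was at 0.28 (adjusted p = 0.117). Ppp1r14a, CPI-17 itself, was at -1.33 in iWAT and -1.19 in BAT, and neither passed (adjusted p = 0.0315 and 0.0249). Ppp1r1b, the gene of DARPP-32, held at most 34 counts in a library, and Ppp1r1c at most 3.

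None of the 5 myosin-targeting subunits was called in either tissue. Ppp1r12c (MBS85), the most abundant of them, ran from 16 to 23.4 CPM per kb in Control iWAT and from 24.1 to 30.4 in Ai-α4KO iWAT, at a log2FC of 0.61 (SE 0.12, adjusted p = 0.0011) under the 2-fold rule, and at 0.16 in BAT (adjusted p = 0.344). Ppp1r12a (MYPT1), the subunit of smooth muscle and non-muscle myosin phosphatase, was at 0.48 in iWAT (adjusted p = 0.0103) against -0.11 in BAT (adjusted p = 0.696). Ppp1r12b (MYPT2), which is known from striated muscle, stood at 0.206, 1.17, 0.667, 0.662 and 1.0 CPM per kb in Control BAT and 1.61, 1.5, 1.15, 3.58 and 0.795 in Ai-α4KO BAT. Its log2FC was 1.18 in BAT (SE 0.45, adjusted p = 0.0369) and -0.58 in iWAT (adjusted p = 0.093), and as for Ppp1r3a the lowest BAT library was Control 1 and the highest Ai-α4KO 4. Of the FPKM sum of Ppp1r12a, Ppp1r12b and Ppp1r12c, Ppp1r12c made up 71.3% ± 4.28 in Control and 73.5% ± 3.85 in Ai-α4KO of iWAT, and 66.6% ± 6.85 and 68.7% ± 8.18 in BAT (SD, n = 5), so that the shares overlap between genotypes. Ppp1r16a (MYPT3) was at -0.72 and -0.64 (adjusted p = 0.00812 and 0.00516) and Ppp1r16b (TIMAP), which is enriched in endothelium, at -0.97 and -0.86 (adjusted p = 0.0225 and 0.009). Endothelial markers were lower beside it, with 3 of 5 called lower in iWAT and 4 of 5 in BAT, and their part in it was not tested.

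Of 13 other genes of myosin light chain phosphorylation, Cit was called higher and Myh10 and Myh11 lower in iWAT, and Myl9 and Myh11 lower in BAT, with medians of 0.15 and 0.02. Myh11, smooth muscle myosin, fell in both, at -1.22 and -1.42. At an adjusted p below 0.01, the kinase gene Mylk was lower in both tissues but missed the 2-fold rule, at -0.79 and -0.74 (adjusted p = 5.28e-04 and 4.11e-04).

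The 2 subunits that direct PP1 to eIF2α were not called. Ppp1r15b (CReP), the constitutive form, was at a log2FC of 0.20 in iWAT (adjusted p = 0.106) against -0.41 in BAT (adjusted p = 0.041). Ppp1r15a (GADD34), the stress-induced form, was at 0.77 in iWAT (SE 0.20, adjusted p = 0.00771), with 14.1 to 19.5 CPM per kb in Ai-α4KO and 7.40 to 14.3 in Control, and at 0.02 in BAT (adjusted p = 0.951). Among 11 genes of the eIF2α pathway, Atf3 and the kinase gene Eif2ak2 rose in iWAT, and Atf3 and Chac1 rose and Trib3 fell in BAT. Atf3 rose by 2.89 in iWAT and 3.29 in BAT. The medians of the list were 0.19 and 0.05.

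The nuclear subunits Ppp1r7, Ppp1r8 and Ppp1r10 lay at log2FCs of 0.05 to 0.14 in iWAT, and none was called in either tissue. Ppp1r8 (NIPP1), the most abundant of them, ran from 15.2 to 17.6 CPM per kb in Control iWAT and from 15.8 to 19.8 in Ai-α4KO iWAT. It was at 0.05 in iWAT (adjusted p = 0.651) against -0.27 in BAT (adjusted p = 0.0352). Ppp1r10 (PNUTS), a subunit on chromatin, was at -0.78 in BAT (adjusted p = 0.011), and Ppp1r7 (SDS22), a partner in the assembly of PP1, was at 0.14 and -0.04.

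Of the ASPP family, Ppp1r13l (iASPP, an inhibitor of p53) fell in BAT. It stood at 5.92, 2.5, 1.98, 3.01 and 2.10 CPM per kb in Control and 1.08, 1.0, 0.703, 0.761 and 0.696 in Ai-α4KO, without overlap. The log2FC was -1.90 (SE 0.31, adjusted p = 1.89e-04), and -1.54 without Control library 1, the highest. In iWAT it was at -0.89 (SE 0.37, adjusted p = 0.0606), and without Control library 4 and Ai-α4KO library 1 together at -1.32, called. With the skeletal muscle score as a covariate, the BAT value was -0.89 (adjusted p = 0.0153) and lost its call, and by limma on log2(FPKM + 1) it was -0.88, under the 2-fold rule. Ppp1r13b (ASPP1) was at -0.20 and -0.60 (adjusted p = 0.154 and 0.0172).

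Ppp1r9a (neurabin-1, chromosome 6, 4903320 to 5165661), an actin-binding scaffold known mainly from synapses, fell in both tissues. In iWAT it stood at 3.51, 6.13, 5.28, 3.55 and 4.23 CPM per kb in Control and 1.65, 1.56, 1.84, 2.60 and 2.30 in Ai-α4KO. In BAT it stood at 4.94, 5.25, 5.49, 5.28 and 3.22 in Control and 1.62, 1.13, 0.829, 1.07 and 1.29 in Ai-α4KO. The genotypes did not overlap in either tissue (p = 0.00794 in each, exact permutation test). Its log2FC was -1.20 in iWAT (SE 0.19, adjusted p = 3.57e-04) and -2.06 in BAT (SE 0.19, adjusted p = 2.17e-06), and its call held in all 10 fits without 1 library in each tissue. By limma on log2(FPKM + 1) the iWAT value was -0.77 and under the 2-fold rule. Its paralog Ppp1r9b (spinophilin) was more abundant, at 31.7 ± 7.63 CPM per kb in Control iWAT (SD, n = 5), and changed by -0.39 and -0.25 (adjusted p = 0.0791 and 0.0974).

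Ppp1r18 (phostensin), an actin-capping partner of PP1 that is known from leukocytes, rose in BAT. It stood at 7.35, 5.09, 4.81, 7.69 and 5.24 CPM per kb in Control and 16, 17.1, 12.9, 11.9 and 14.2 in Ai-α4KO, without overlap, with a log2FC of 1.22 (SE 0.16, adjusted p = 4.72e-05). In iWAT it stood at 19.1, 8.95, 8.92, 15.6 and 13.7 in Control and 26.8, 21.1, 25.0, 23.8 and 23.8 in Ai-α4KO, also without overlap, and at 0.85 (SE 0.20, adjusted p = 0.00416) it missed the 2-fold rule. Control iWAT libraries 1 and 4, the highest of Control, also held 578 and 227 CPM of 10 B cell markers in sum, against 7.46 to 19.1 in the other iWAT libraries. Without these 2 libraries the iWAT value was 1.11 (adjusted p = 4.45e-04), which is called.

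Ppp1r21 (chromosome 17, 88530124 to 88588367), a subunit of an early endosome complex that carries mRNA, was the only member called higher in both tissues. It stood at 11.5, 12.9, 12.8, 13.3 and 14.5 CPM per kb in Control iWAT and 23.5, 32.9, 32.4, 27.4 and 31.9 in Ai-α4KO iWAT. In BAT it stood at 7.32, 8.10, 7.43, 9.6 and 7.27 in Control and 17.4, 22, 16.2, 12.9 and 17.3 in Ai-α4KO. The lowest Ai-α4KO library lay well above the highest Control library in each tissue. It rose by 1.18 on the log2 scale in iWAT (SE 0.11, adjusted p = 1.02e-05), 2.27-fold, and by 1.08 in BAT (SE 0.14, adjusted p = 4.60e-05), 2.11-fold. Without Ai-α4KO BAT library 2 the BAT value was 0.97 and under the 2-fold rule (adjusted p = 9.11e-05).

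Ppp1r37, a leucine-rich repeat protein that binds and inhibits PP1, fell in BAT, from 29.8, 21, 24.8, 25.6 and 29.3 CPM per kb in Control to 13.3, 12.6, 10.4, 14.4 and 12.1 in Ai-α4KO, without overlap. The log2FC was -1.10 (SE 0.13, adjusted p = 1.30e-05), and -0.99 with the skeletal muscle score as a covariate, just under 2-fold (adjusted p = 0.00164), and it was called in 8 of 13 alternatives. In iWAT it was at -0.84 (SE 0.19, adjusted p = 0.00346), and at -1.05, called, without Ai-α4KO library 1, the highest of its group at 16.4 CPM per kb against 8.48 to 9.71 in the others. Ppp1r35, a centrosomal protein, was at 0.16 in iWAT and 0.15 in BAT (adjusted p = 0.718 and 0.55). Control iWAT library 1 held 10.5 CPM per kb of it, against 3.68 to 4.17 in the others of its group. The other members of no fixed role were low. Ppp1r26 and Ppp1r32 passed no threshold, and Ppp1r36, Ppp1r42, Ppp1r2-ps3 and Ppp1r3fos held at most 13 counts in any library. The table lists the same transcripts for Ppp1r3fos and for the neighbouring gene Foxp3, so reads of these cannot be told apart.

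**Figure D5:**
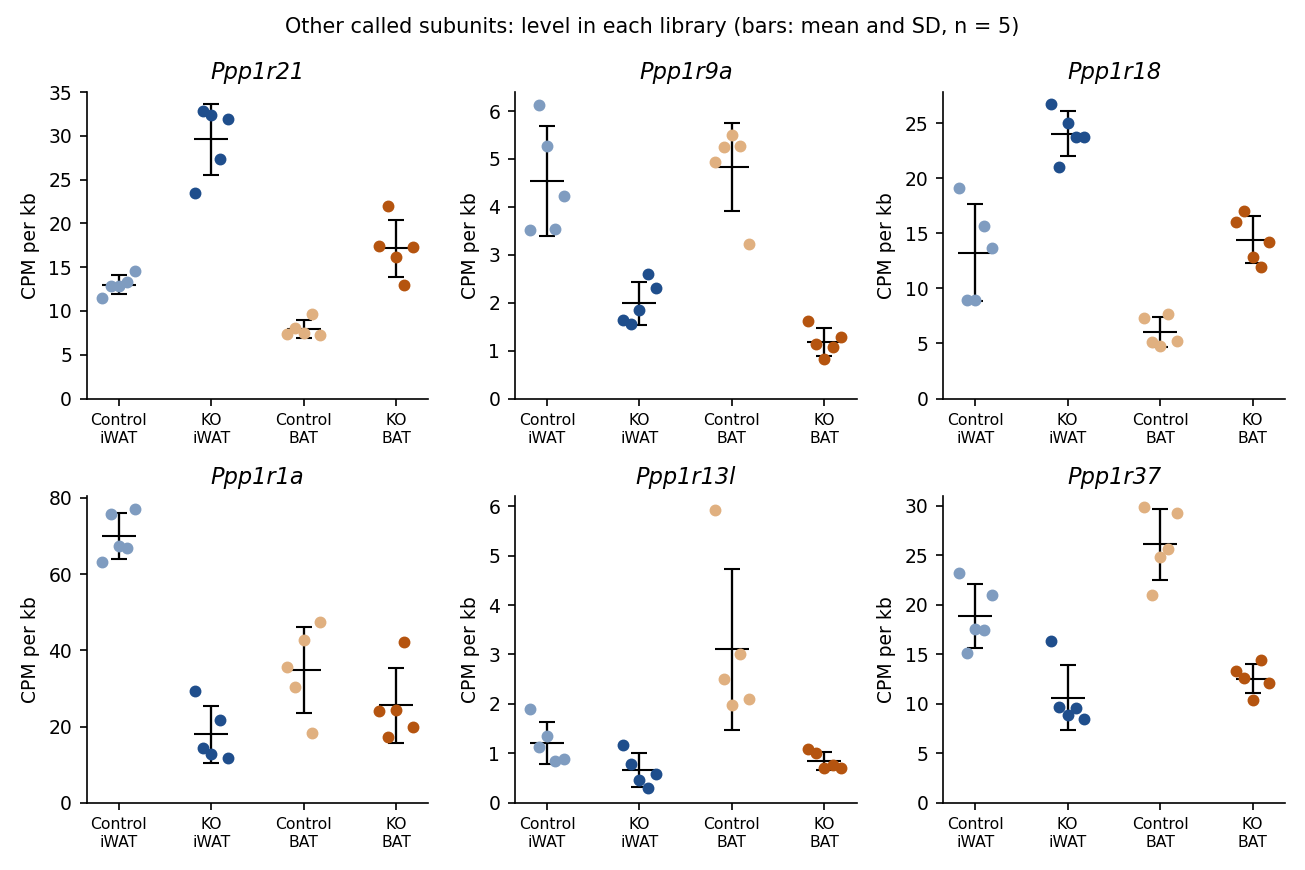
CPM per kb (y axis) of 6 further members in each library of the 4 groups (x axis), with points for libraries and bars for the mean and SD of 5 libraries; KO stands for Ai-α4KO. Ppp1r21 is higher and Ppp1r9a lower in all Ai-α4KO libraries of both tissues, Ppp1r1a is lower in Ai-α4KO iWAT and overlaps in BAT, and Ppp1r13l and Ppp1r37 are lower without overlap in BAT only.

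Markers of several cell types moved with genotype beside all of these results. Of 8 macrophage markers, 8 were called higher in each tissue, and their sum rose from 1097 to 1850.1 CPM in Control iWAT to 7192 to 9687 in Ai-α4KO iWAT, and from 221 to 495 to 4139 to 6847 in BAT. Of 10 adipocyte markers, 8 were called lower in iWAT and 7 in BAT, with sums of 24372 to 33108 CPM in Control iWAT against 12065 to 17204 in Ai-α4KO iWAT, and 23885 to 26426 against 13455 to 16188 in BAT. No marker of either list was at 0 in any library. Neutrophil markers were called higher for 4 of 5 in iWAT and 5 of 5 in BAT, and brown adipocyte markers lower for 4 of 6 and 3 of 6. Smooth muscle and mural markers were called lower for 1 of 9 in iWAT and 3 of 9 in BAT, where 1 was higher, and fibroblast and progenitor markers higher for 0 of 6 and 1 of 6. B cell markers were called lower for 1 of 9 tested in iWAT and higher for 3 of 5 tested in BAT. These are bulk tissues, in which fewer cells of a type and less RNA per cell cannot be told apart. The part of either list in the results for the members was not tested.

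Between tissues, Control BAT was compared with Control iWAT in a fit of all 20 libraries, in which 38 members were tested. Called higher in BAT were 3 members, against 7.34% of all genes, and higher in iWAT 2, against 15.4%. For the catalytic gene Ppp1cb every Control BAT library lay above every Control iWAT library, with a log2 difference of 1.42 (SE 0.19, adjusted p = 5.76e-06), and stayed called in all 20 fits without 1 library. Ppp1ca and Ppp1cc differed by 0.02 and -0.02 (adjusted p = 0.885 and 0.902). Ppp1ca was at -0.20 with library size only. Ppp1r3b was higher in BAT by 1.57 (SE 0.42, adjusted p = 0.00442), called in 8 of 10 alternatives and 16 of 20 fits without 1 library. Ppp1r13l was higher by 1.34 (SE 0.35, adjusted p = 0.00341), called in 6 of 10 and 17 of 20, and at 0.66 by limma on log2(FPKM + 1). Higher in iWAT were Ppp1r18, by -1.14 for BAT over iWAT (SE 0.19, adjusted p = 7.20e-05), and Ppp1r1a, 2.01-fold (adjusted p = 0.00481), which is at the edge of the 2-fold rule and was called in 6 of 20 fits without 1 library. The skeletal muscle score was at most 3.23 in 4 of 5 Control iWAT libraries and at least 6.19 in Control BAT, and Ppp1r3a, Ppp1r14c and Ppp1r27 differed by 1.89, 1.87 and 2.98 without passing (adjusted p = 0.234, 0.151 and 0.0778). By limma on log2(FPKM + 0.1), Ppp1r3a and Ppp1r27 were called at 3.32 and 4.64 (adjusted p = 0.00971 and 0.003), and on log2(FPKM + 1) Ppp1r27 was called at 2.49 (adjusted p = 0.00835). With the replicate block, Ppp1r3a, Ppp1r14c and Ppp1r27 differed by 4.87, 2.99 and 5.45, not called (adjusted p = 0.0268, 0.0447 and 0.0153). Among Ai-α4KO libraries the difference was 0.83 for Ppp1cb (SE 0.19, adjusted p = 0.00198) and 2.31 for Ppp1r3b (SE 0.44, adjusted p = 4.30e-04). Larger in the same direction were Ppp1r3a at 5.81, Ppp1r14c at 4.40, Ppp1r27 at 4.18, Ppp1r3c at 3.31, Ppp1r3g at 3.18 and Ppp1r12b at 2.97.

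The genotype effect was compared between tissues by the interaction term, at an adjusted p below 0.01. None of 38 members was called by edgeR's quasi-likelihood test, against 4.86% of all genes, and 10 of 38 had an unadjusted p under 0.05, against 31% of all genes. DESeq2 called 3, Ppp1r3c, Ppp1r1a and Ppp1r12b, and limma on log2(FPKM + 1) called 1. In the edgeR fit Ppp1r3c had the lowest adjusted p, with an interaction of 2.46 on the log2 scale (SE 0.59, adjusted p = 0.0105), followed by Ppp1r1a at 1.52 (SE 0.39, adjusted p = 0.0142) and Ppp1r12b at 1.79 (SE 0.57, adjusted p = 0.039). Ppp1r3c passed the threshold in 5 of 10 alternatives and Ppp1r1a in 7 of 10. For Ppp1r3b, which fell in both tissues, the interaction was 0.75 (SE 0.59, adjusted p = 0.404), and for Ppp1r9a it was -0.83 (SE 0.28, adjusted p = 0.0523). Ppp1r3a and Ppp1r14c had interactions of 3.92 and 2.53 with SEs of 1.86 and 1.49 (adjusted p = 0.159 and 0.258). Without Control iWAT library 4 these were -0.68 and 0.14, and without Ai-α4KO iWAT library 1 they were 6.78 and 5.40, where Ppp1r14c was called (adjusted p = 0.00895) and Ppp1r3a was not (adjusted p = 0.0177).

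PP1 partners that carry other names were read from a list, of which the filter kept 19 in iWAT and 18 in BAT. The medians of the list were 0.21 and 0.12. Of all genes, 11.3% were called higher and 10.7% lower in iWAT, and 18.2% and 13.3% in BAT. Of the list, 3 were called higher and 1 lower in each tissue. The 3 were Mki67, the Ki-67 protein of dividing cells, at 2.84 and 3.75, Cdca2, which brings PP1 to chromatin as cells leave mitosis, at 2.07 and 2.42, and Casc5, a kinetochore platform for PP1, at 3.10 and 3.58. All 3 are known to be expressed in dividing cells. Akap1, which anchors protein kinase A and PP1 at mitochondria, fell by 1.30 in iWAT and by 2.30 in BAT (adjusted p = 4.17e-05 and 8.77e-07).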

How the data were processed

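RNA-seq of iWAT and BAT was analysed from 1 gene table. Per the submitters' processing notes, bcl2fastq 2 and STAR 2.5.3a with mm10 were used. Libraries of stranded mRNA gave paired reads of 150 bp. The counting tool and annotation are not given in the sources used here. The authors deposited expected counts (not normalized, 76.7% of nonzero values whole within 1e-06) and FPKM values (counts per transcript width and library total), and the table also lists the transcript width. Columns of the authors' own comparisons were not used.

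Expected counts were rounded and fitted with edgeR 4.0.16 in R 4.3.3 (filterByExpr, TMM, glmQLFit, glmQLFTest without covariates) over the whole table, with Benjamini-Hochberg adjustment over all genes tested. Genotypes were fitted within each tissue, and the interaction and the Control tissues in all 20 libraries. A called member had an adjusted p below 0.01 and, except for the interaction, a fold change of at least 2. Single genes were compared by exact permutation of log2 CPM (prior count 2).

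All 20 libraries were used. Libraries held 24023371 to 50384446 counts, and SEs cover counting error and the spread between libraries together. Named genes are the catalytic genes, all members called in a tissue or between Control tissues, the most abundant member of role groups without a call, and the listed pathway genes called. Other names, and per-library values of members called in 1 tissue, were chosen after their values were seen. Members and lists were chosen with earlier results of these data known. Alternatives were DESeq2 1.42.0, limma 3.58.1 on log2 FPKM with pseudocounts of 1 and 0.1 (filter at a mean FPKM of 0.5 or none), library size only, upper-quartile scaling, no filter, a minimum of 10 counts per library, a threshold of 0.05, no fold change rule, 1 fit of all libraries, marker scores as covariates, a replicate block, and leaving out libraries. The fits were tested on simulated data.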

Additional observations from a re-analysis of the deposited data

Results flagged for a closer look

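The genes examined here were the catalytic genes, the called members, the most abundant member of each role group without a call, and Igbp1. In these, 76 groups of 5 libraries were searched for a library far from the other 4. A library was judged by its gap to the nearest library as a share of the group's range. Chance flags about 1 in 20 groups, which gives 3.8, and 13 were flagged. Of these, 6 were Ppp1r3a, Ppp1r14c and Ppp1r27 in 2 libraries. In Control iWAT library 4 the gap was 0.986 of the range for Ppp1r3a, 0.974 for Ppp1r14c and 0.985 for Ppp1r27, and in Ai-α4KO iWAT library 1 it was 0.952, 0.973 and 0.978. Ai-α4KO iWAT library 1 was also far above its group for Ppp1ca (0.794) and Ppp1r37 (0.844), at 222 and 16.4 CPM per kb.

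The remaining 5 were spread over other libraries. The highest library was Control BAT 1 for Ppp1r13l (0.740), Ai-α4KO BAT 4 for Ppp1r1a (0.718), Ai-α4KO iWAT 2 for Ppp1r3b (0.791) and Control iWAT 1 for Ppp1r12c (0.711). Control BAT 5 was the lowest for Ppp1r9a (0.755), at 3.22 CPM per kb.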

How the results depend on the processing

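Calls of Ppp1r3b, Ppp1r21, Ppp1r18 and Ppp1r9a in BAT and of Ppp1r3b, Ppp1r3c, Ppp1r1a and Ppp1r21 in iWAT held in every alternative run, except Ppp1r21 in BAT without Ai-α4KO library 2. Over 61 values followed through the alternatives, 852 recomputed values were kept, 61 lost a call, 32 gained one and 24 changed sign. The followed values were log2FCs of named members and shares of the catalytic and Ppp1r12 genes. A log2FC was kept when its direction and side of the threshold stayed. The shares, recomputed from TMM counts per width, were all kept, which follows from scaling a whole library by 1 factor. In iWAT, 1 member called higher became 2 by limma on log2(FPKM + 0.1), with the B cell score as covariate and without Control libraries 1 and 4, and 7 with no fold change rule. The 5 called lower became 3 by limma on log2(FPKM + 1), with or without its filter, and 8 with no fold change rule or, chosen after seeing the data, without Control library 4 and Ai-α4KO library 1. In BAT, 5 called higher became 2 in 1 fit of all libraries and with the muscle score as covariate. The 5 called lower became 3 with library size only, 2 by limma on log2(FPKM + 1), with or without its filter, 2 with the muscle score, and 8 with no fold change rule. For the interaction, the count of 0 became 3 by DESeq2 and at an adjusted p below 0.05, 2 with library size only and with 10 counts in every library, and 1 with upper-quartile scaling, by limma with either pseudocount and with the replicate block. Between Control tissues, 3 higher in BAT became 1 with library size only, 2 by limma on log2(FPKM + 1) with no filter and 4 by DESeq2, at an adjusted p below 0.05 and by limma on log2(FPKM + 0.1), and 2 higher in iWAT became 1 with no filter. Leaving out 1 library gave 0 to 3 for the interaction (3 without Ai-α4KO iWAT library 1), 2 to 5 higher in BAT (5 without Control iWAT library 4) and 1 to 2 higher in iWAT. The causes were not tested.

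Among these followed genotype values within a tissue, those that changed sign, none of them called after the change, were Ppp1cb in iWAT (main -0.01) at 0.11 with library size only, 0.00 with no filter, 0.12 by limma, 0.11 without Control library 4 and Ai-α4KO library 1 together, and between -0.15 and 0.05 without 1 library. In iWAT Ppp1r14c was at -0.11 with the replicate block, -0.22 without Control library 4 and Ai-α4KO library 1 together, and -2.63 to 2.57 without 1 library. Ppp1r3a in iWAT was at 0.35 with the replicate block, 2.40 with the B cell score, 2.85 without Control libraries 1 and 4, 0.32 with the muscle score, 0.21 without Control library 4 and Ai-α4KO library 1 together, and -4.42 to 2.98 without 1 library. In BAT, Ppp1r3a was at -0.43 with the muscle score. Between Control tissues Ppp1ca (main 0.02) was at -0.20 with library size only and -0.19 by limma. Library size only put the median of all genes at 0.232 in BAT (main -0.032), 0.134 in iWAT (main 0.015) and -0.228 between Control tissues (main -0.003). Deviations of same-numbered libraries correlated between -0.45 and 0.24, which cannot tell whether replicate numbers pair the samples. With the replicate block, Ppp1r1a gained an interaction call and Ppp1r3b lost its call between Control tissues at a larger difference of 1.87 (adjusted p = 0.0275).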
